A study of Mus musculus with 11 samples.

Results

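The 9 myelin genes Mbp, Mog, Mag, Mobp, Cnp, Cldn11, Mal, Ermn and Opalin were followed in oligodendrocytes of the mouse brain after experimental stroke, and as traces in the other cell types. They are 9 of the 32285 genes counted in every library, and were named for their known role in myelin. The rule that names them holds no measured value, but it was set with earlier results of these data known. Oligodendrocytes were taken as cells with at least 4 of the 6 markers Mog, Mag, Ermn, Opalin, Ugt8a and Aspa. This gave 15824 of 125578 retained cells, from 231 to 5416 in a library. Mog, Mag, Ermn and Opalin therefore helped to choose these cells. Their tests are read from cells that were chosen without any of the 9 genes, and their values and calls in cells chosen with them are given as a description.

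The study made single-cell RNA sequencing libraries from right brain tissue of mice, 1 mouse per library, with a 10x Genomics kit that reads the 3′ end of each transcript and counts molecules by unique molecular identifiers (UMIs). The sham + WT group held 3 male C57BL/6 mice of 8 to 10 weeks (replicates 1, 2 and 3), in which a suture was placed without entering the internal carotid artery. The sham + Lrg1-/- group held 3 mice with the same sham surgery and a deletion of Lrg1 in the whole body (replicates 1, 2 and 5). The MCAO/R + WT group held 2 wild-type mice whose middle cerebral artery was blocked for 1 hour and then reopened (replicates 1 and 2), and the MCAO/R + Lrg1-/- group held 3 knockout mice after the same procedure (replicates 1, 2 and 5). Lrg1 encodes a secreted glycoprotein of blood and vessels. The knockout line was described as C57BL/6J in 1 place and as C57BL/6N in another, and the sex of its mice was not given. It lacked Lrg1 from exon 1 to the stop codon in exon 2, had been backcrossed for 4 generations, and was used at 3 months. Genotype therefore cannot be told apart from age, nor from substrain and sex where these differed. The labels give no time after reperfusion. The methods list several times for the model and the discussion speaks of 1 hour, so that the time of these libraries is uncertain.

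Myelin is a stack of oligodendrocyte membrane wound around axons. Mbp sits on the inner face of that membrane and holds neighbouring layers together, and Mobp is a further small basic protein of compact myelin. Cnp keeps channels of cytoplasm open within the stack. Cldn11 forms the tight junction strands that seal the layers, and Mal is a lipid raft protein of myelin and of sorting membranes in other cells. Mag lies on the side that faces the axon, Mog lies on the outermost surface, Ermn is a cytoskeletal protein of late oligodendrocytes, and Opalin is a transmembrane glycoprotein of mature oligodendrocytes. The genes are switched on in differentiation by the factor Myrf together with SOX factors such as Sox10.

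Promoters are shown because the members differed in how they moved, and because both factors have short recognition sequences that can be looked for. RefSeq promoters on GRCm38.p6 were found for 8 of the 9 genes, and the 250 bases before each start were searched on both strands for the Myrf motif CTGGCAC, the SOX motif ACAAAG, a SOX core AACAAT and the E-box CAGCTG. Of 32851 promoters, 4.19% held the Myrf motif, 16.5% the SOX motif, 9.42% the SOX core and 13% the E-box. The Cnp promoter held 1 Myrf and 1 SOX match, and Opalin held 1 SOX match. Mag has 3 listed starts. Its first held 1 Myrf and 1 SOX match, the second held the same letters, and the third held none. Mobp held 6 matches to ACAAAG, all read as CTTTGT on this strand, and was the 1 promoter of 32851 (0.00304%) with 6 or more, a limit set after its matches were seen. Mog, Cldn11, Mal and Ermn held none, no member held the SOX core or the E-box, and no matches overlapped. These matches describe letters and were not tested as sites. For 5 promoters, 200 bases are given 5′ to 3′ on the strand of the gene, from 250 to 51 bases before the start, with matches in capitals. The stretch of Mag, before the first start, lies at chr7:30914914-30915113 on the minus strand, Mobp at chr9:120149492-120149691 and Cnp at chr11:100574689-100574888 on the plus strand, and Mal at chr2:127656746-127656945 and Opalin at chr19:41077164-41077363 on the minus strand.
Mag: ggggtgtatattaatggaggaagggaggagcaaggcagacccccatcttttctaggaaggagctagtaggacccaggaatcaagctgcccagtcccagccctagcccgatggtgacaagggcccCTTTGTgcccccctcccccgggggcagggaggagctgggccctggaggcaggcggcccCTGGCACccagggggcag
Mobp: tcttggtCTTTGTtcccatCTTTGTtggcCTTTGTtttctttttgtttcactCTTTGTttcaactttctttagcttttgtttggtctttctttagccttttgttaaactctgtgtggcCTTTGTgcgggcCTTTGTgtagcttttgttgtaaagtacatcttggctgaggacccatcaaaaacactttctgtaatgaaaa
Cnp: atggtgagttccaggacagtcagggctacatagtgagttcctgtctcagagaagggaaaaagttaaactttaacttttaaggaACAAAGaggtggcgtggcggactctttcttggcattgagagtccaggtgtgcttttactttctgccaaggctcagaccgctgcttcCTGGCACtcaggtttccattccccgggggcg
Mal: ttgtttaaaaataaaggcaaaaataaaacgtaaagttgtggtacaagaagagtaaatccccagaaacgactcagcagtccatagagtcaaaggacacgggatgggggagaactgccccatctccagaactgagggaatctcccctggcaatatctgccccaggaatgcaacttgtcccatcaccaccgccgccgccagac
Opalin: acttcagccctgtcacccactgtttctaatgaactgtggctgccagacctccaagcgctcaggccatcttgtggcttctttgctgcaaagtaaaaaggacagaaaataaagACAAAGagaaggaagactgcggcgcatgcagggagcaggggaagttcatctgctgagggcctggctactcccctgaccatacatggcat

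In the GENCODE M21 annotation of GRCm38, the genome the labels call mm10, the genes lie on different chromosomes, except that Mal and Ermn share chromosome 2 at a distance. Mog spans chr17:37010743-37023398, Mag chr7:30899176-30914873, Mobp chr9:120149707-120181484 and Cnp chr11:100574904-100591729. Cldn11 spans chr3:31149920-31164324, Mal chr2:127633226-127656695, Ermn chr2:58045113-58052864 and Opalin chr19:41061710-41077113. UMIs were summed over oligodendrocytes per library and scaled to CPM (counts on the per-million scale) by the TMM method of edgeR, and this scale is used for all levels. It does not correct for transcript length or for how well a 3′ end is read, so that levels are compared between libraries and not between genes. In sums, fewer cells of a kind and less RNA per cell cannot be told apart.

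The Lrg1-/- libraries stood apart from the WT libraries in RNA of other cells. Lrg1 was seen as 0 UMIs in 5 of the 6 Lrg1-/- libraries and as 1 UMI in MCAO/R + Lrg1-/- replicate 5, against 177 to 651 UMIs in sham + WT and 17225 and 15681 in MCAO/R + WT. WT libraries held 110423176 to 144393940 UMIs and Lrg1-/- libraries 37159497 to 171813031. Of the cells chosen by the 4 of 6 markers, 9.43 to 31.7% also passed the marker rule of another cell type in WT libraries, and 20.6 to 84.1% in Lrg1-/- libraries. Haemoglobin Hbb-bs in these cells was at most 28.0 CPM in WT libraries and 8140 to 55359 in Lrg1-/- libraries, and the choroid plexus transcript Ttr was at 1506 to 4711 against 9878 to 73581. No pair of libraries shared more than 146 cell barcodes, or more than 4 among oligodendrocytes.

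For this reason the members were also read in a narrower set, chosen after the data had been seen. Cells of each library were clustered without use of the 9 genes, and 23 of 312 clusters were rich in 8 other oligodendrocyte markers (Ugt8a, Aspa, Hapln2, Gjb1, Tmem125, Ppp1r14a, Gpr37 and Fa2h). These clusters held 10210 cells, of which 9071 also passed the 4 of 6 rule and are called clustered oligodendrocytes here, 99 to 2256 per library. The clusters were not equally rich. The lowest mean share of cells with a UMI of the 8 markers in a cluster was 29.5% in MCAO/R + WT replicate 1. It was 33.2% in MCAO/R + Lrg1-/- replicate 2 and 55.5 to 77.2% in the other libraries. In MCAO/R + Lrg1-/- replicate 2 only 785 of 1343 cells of the clusters passed the 4 of 6 rule. Levels are given for clustered oligodendrocytes. As a description, Sox10 and Olig1 were higher in them than in the remaining marker-positive cells in 11 of 11 libraries, and so was each of the 9 members. Outside the clusters the members reached a median of 9.39 to 21.5% of the level inside, depending on the gene, and 39.9% of those cells passed the microglia rule, against 6.39% inside. The clusters reduced but did not remove the difference between genotypes, with Hbb-bs at 7.53 to 10.4 in WT and 3353 to 14840 in Lrg1-/- libraries, and with median UMIs per cell of 13037 to 16142 against 6383 to 9013.

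In wild-type mice, stroke went with lower levels of most myelin genes in clustered oligodendrocytes, and with the furthest fall for Opalin and Ermn. Opalin was at 1204, 1080.4 and 968 CPM in the sham + WT libraries and at 405 and 305 in the MCAO/R + WT libraries. Ermn was at 1293, 1293 and 1444 in sham and at 606 and 503 after stroke. For both genes every stroke library was under every sham library, as descriptions in cells that both genes helped to choose. Over all genes, 58.3% did not overlap between these groups. In all cells of the clusters, chosen with no member, Opalin fell by 1.61 on the log2 scale (SE 0.20, adjusted p = 7.84e-05, edgeR quasi-likelihood test with Benjamini-Hochberg adjustment over all genes) and Ermn by 1.28 (SE 0.21, adjusted p = 0.000633). Both calls held without any 1 library, from -1.85 to -1.42 for Opalin and from -1.43 to -1.16 for Ermn. Where 1 MCAO/R + WT library was left out, here and in other comparisons, the lone library left was assumed to vary like those of the other groups.

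Cnp, the enzyme of the cytoplasmic channels, was at 3607, 3615 and 3344 in sham + WT and at 2045 and 2314 in MCAO/R + WT. Mog was at 2181, 2067 and 1987 and fell to 1253 and 1333. The fitted levels were thus 1.62 and 1.61 times higher in sham. Cnp fell by 0.69 on the log2 scale in clustered oligodendrocytes (SE 0.16, adjusted p = 0.00676, edgeR), and Mog by 0.69 in all cells of the clusters (SE 0.16, adjusted p = 0.00723, edgeR). Cldn11 and Mag were called as well, and Mal only in the clustered cells. There the log2 changes were -0.50 (SE 0.14, adjusted p = 0.0217) for the tight junction gene Cldn11 and -0.62 (SE 0.19, adjusted p = 0.0341) for Mal. In all cells of the clusters Mal was not called, at -0.62 (SE 0.22, adjusted p = 0.0607). Mag changed by -0.46 (SE 0.14, adjusted p = 0.0345) in all cells of the clusters.

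Mbp and Mobp did not pass the test. Mbp was at 3587, 3644 and 3496 in sham and at 2498 and 2982 after stroke, with a log2 difference of -0.38 (SE 0.16, adjusted p = 0.112, edgeR). Mobp was the 1 member with the higher values after stroke, at 1867, 2092 and 1956 in sham and at 2292 and 2532 in MCAO/R + WT. Its log2 difference was 0.29 (SE 0.19, adjusted p = 0.305, edgeR). The 2 basic proteins of compact myelin thus lay on opposite sides of zero, although a test of the difference between genes was not made.

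**Figure D1:**
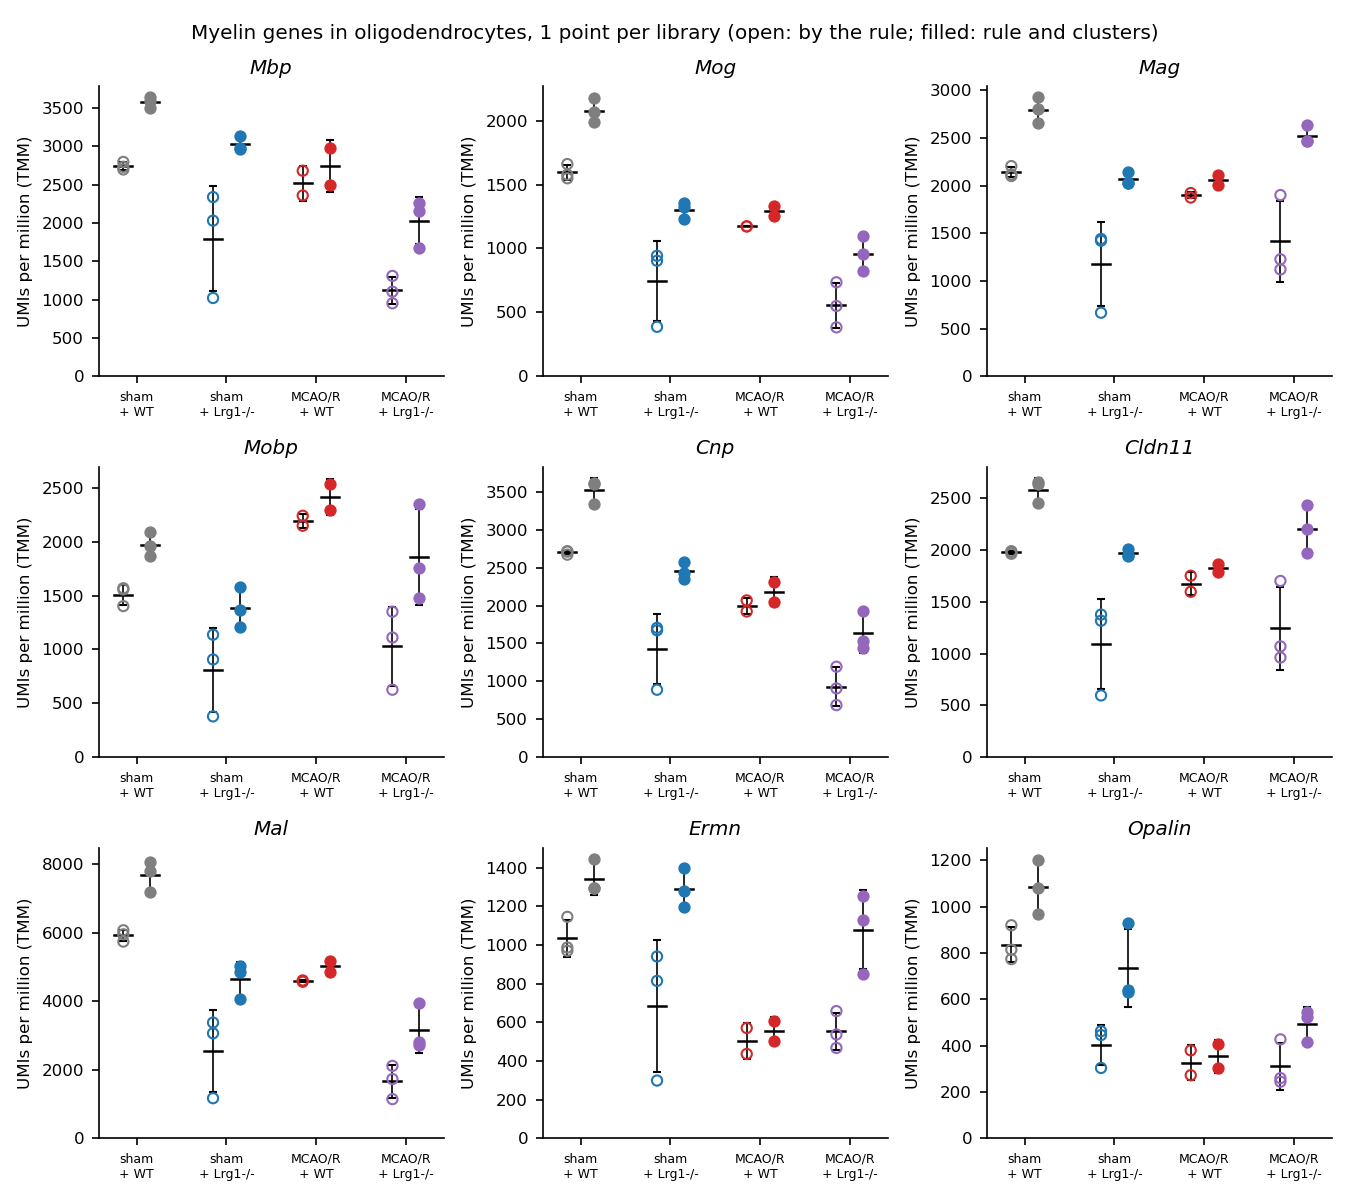
Level of each of the 9 genes in oligodendrocytes, in CPM after TMM scaling (vertical axis from 0), for the 4 groups, with 1 point per library, open for all cells by the 4 of 6 rule and filled for clustered oligodendrocytes; lines give the mean ± SD. In clustered cells Opalin and Ermn of both MCAO/R + WT libraries lie under all 3 sham + WT libraries, and Mobp lies above them.

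In all cells of the clusters 6 of the 9 members were called lower after stroke in wild-type mice and none higher, with calls at an adjusted p below 0.05 and a fold change above 0.25 on the natural-log scale. Over all genes tested 22.8% were called in this comparison. The number called fell to 2, Opalin and Ermn, without MCAO/R + WT replicate 1, and to 4 without MCAO/R + WT replicate 2 or any 1 of the sham + WT libraries. In clustered oligodendrocytes 7 were called, these 6 and Mal, all lower, against 23.0% of all genes and 11.9% as lower. The median log2 difference of the members was -0.62 against 0.01 for all genes. This count and median are a description, since Mog, Mag, Ermn and Opalin helped to choose the clustered cells. There the call of Cnp, Cldn11 or Mal, which did not choose the cells, was lost in 1 to 7 of the 11 fits that left out a library. By the 4 of 6 rule alone only Opalin was called, where 5.54% of all genes were called and 1.95% as lower, and 2 members had an unadjusted p under 0.05. In cells chosen by 4 of 8 markers outside the members, Opalin was again the 1 member called, at -1.43 (SE 0.35, adjusted p = 0.0366, edgeR), against 5.56% of all genes.

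In Lrg1-/- mice, Mbp and Cnp were lower after stroke. Mbp was at 3133, 2969.9 and 2982 in the sham + Lrg1-/- libraries and at 2150.0, 1677 and 2261 in the MCAO/R + Lrg1-/- libraries. Cnp was at 2346, 2429 and 2576 in sham and at 1443, 1539 and 1931 after stroke. In both genes the groups did not overlap, as in 25.3% of all genes. Mbp fell by 0.58 on the log2 scale (SE 0.15, adjusted p = 0.0256, edgeR) and Cnp by 0.58 (SE 0.14, adjusted p = 0.0226). Mog was at 1324, 1356 and 1229.6 in sham and at 827, 954 and 1101 after stroke, with a log2 difference of -0.47 in all cells of the clusters (SE 0.14, adjusted p = 0.0502). Opalin was at 633, 642 and 927 against 524, 545 and 414, and its log2 difference in all cells of the clusters was -0.59 (SE 0.17, adjusted p = 0.0463). Ermn was at 1396, 1280.2 and 1196 against 1251, 852 and 1130.0, groups that overlapped, with -0.30 (SE 0.18, adjusted p = 0.320). Mal had a log2 difference of -0.59 in all cells of the clusters (SE 0.19, adjusted p = 0.0713) and was not called.

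The other 3 members lay on the other side of zero in Lrg1-/- mice, and none of them was called. Mag was at 2031, 2141 and 2029 in sham + Lrg1-/- and at 2638, 2466 and 2474 in MCAO/R + Lrg1-/-, groups that did not overlap. Its log2 difference in all cells of the clusters was 0.27 (SE 0.13, adjusted p = 0.205, edgeR). Mobp was at 1579, 1362 and 1206 against 1478, 1755 and 2349, with 0.40 (SE 0.18, adjusted p = 0.188). Cldn11 was at 1939, 2012 and 1953 against 2436, 2203 and 1972, with 0.13 (SE 0.13, adjusted p = 0.569). The groups overlapped in Mobp and in Cldn11.

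For Lrg1-/- mice 3 members, Mbp, Cnp and Opalin, were called in all cells of the clusters, all lower, against 10.1% of all genes. In clustered oligodendrocytes 3 were called as well, all lower, against 10% of all genes and 5.69% as lower. That count is a description, since Mog, Mag, Ermn and Opalin helped to choose the cells. Among marker-positive cells that passed no other type's rule 6 were called, against 17.9% of all genes, where stroke in WT mice gave 5 against 21.5%. By the 4 of 6 rule none was called by edgeR, and 1 had an unadjusted p under 0.05, against 1.28% of all genes called. In cells chosen by the other 8 markers none was called either, nor was any under an unadjusted p of 0.05, against 0.646%. In all cells of the clusters none was called without any 1 of the sham + Lrg1-/- libraries or without MCAO/R + Lrg1-/- replicate 2. There 1 was called without any 1 of the sham + WT libraries or without MCAO/R + WT replicate 2, 2 without MCAO/R + Lrg1-/- replicate 1 or MCAO/R + WT replicate 1, and 4 without MCAO/R + Lrg1-/- replicate 5.

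Without stroke, 6 of the 9 myelin genes were called lower in Lrg1-/- mice than in WT mice in all cells of the clusters, and Mbp, Mobp and Ermn were not called. Mal was at 7806, 8053 and 7202 in the sham + WT libraries and at 5022, 4854 and 4080.2 in sham + Lrg1-/-. Mog was at 2181, 2067 and 1987 against 1324, 1356 and 1229.6. Cnp was at 3607, 3615 and 3344 against 2346, 2429 and 2576. All 3 genes were lower in every knockout library than in any wild-type library, and 39.0% of all genes did not overlap between these groups. Mal differed by -0.72 on the log2 scale (SE 0.17, adjusted p = 0.0165, edgeR), Cnp by -0.52 (SE 0.14, adjusted p = 0.0301), and Mog by -0.73 in all cells of the clusters (SE 0.14, adjusted p = 0.00587). There Mag differed by -0.48 (SE 0.13, adjusted p = 0.0248) and Opalin by -0.63 (SE 0.17, adjusted p = 0.0282). Ermn was at 1293, 1293 and 1444 against 1396, 1280.2 and 1196, overlapping groups with a log2 difference of -0.12 in all cells of the clusters (SE 0.18, adjusted p = 0.681).

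The 6 calls in all cells of the clusters stood against 14.1% of all genes. In clustered oligodendrocytes 4 members were called, against 12.6% of all genes and 5.19% as lower. The median log2 difference was -0.51 for the members and -0.02 for all genes. Both are a description, since Mog, Mag, Ermn and Opalin helped to choose the clustered cells. By the 4 of 6 rule, Mal, Mog and Opalin were called, against 20.2% of all genes and 6.79% as lower, and in cells chosen by the other 8 markers Opalin alone, at -1.03 (SE 0.30, adjusted p = 0.0357), against 19.8%. Transcripts foreign to oligodendrocytes moved with this comparison. In clustered oligodendrocytes 4 of 4 haemoglobin genes, 3 of 4 choroid plexus tracers (all but Enpp2, which is also in the list of lipid enzymes) and 5 of 5 microglia tracers were called higher in the knockout, as were 10 of 13 immediate early genes of dissociation, and their part in the result was not tested. With haemoglobin, choroid plexus tracer and mitochondrial genes left out of the sums of clustered cells, 7 members were called, while by the 4 of 6 rule the same step lowered the count from 3 to 1. Mog kept its call in all cells of the clusters without any 1 library. The number called there was 1 without sham + Lrg1-/- replicate 1 or 2 or sham + WT replicate 1 or 2, 2 without sham + Lrg1-/- replicate 5, 3 without sham + WT replicate 3, and 7 without any 1 of the 5 MCAO/R libraries.

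Between the genotypes after stroke, 2 of the 9 members were called in clustered oligodendrocytes, which Mog, Mag, Ermn and Opalin helped to choose. This share is near the 21.1% of all genes, so that the values describe single members. Ermn was at 606 and 503 in the MCAO/R + WT libraries and at 1251, 852 and 1130.0 in the MCAO/R + Lrg1-/- libraries. Mal was at 4861 and 5173 against 2820.2, 2719 and 3948. The knockout libraries were all higher in Ermn and all lower in Mal, and 46.5% of all genes did not overlap between these groups. Ermn differed by 0.86 on the log2 scale in all cells of the clusters (SE 0.20, adjusted p = 0.0107, edgeR), or 1.82-fold, and Mal by -0.67 in clustered oligodendrocytes (SE 0.19, adjusted p = 0.0242). Mog was at 1253 and 1333 against 827, 954 and 1101, and was called in all cells of the clusters at -0.52 (SE 0.16, adjusted p = 0.0315).

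The remaining members gave no call by edgeR in clustered cells, where DESeq2 called 5 of the 9. Mbp, at 2498 and 2982 against 2150.0, 1677 and 2261, differed by -0.43 (SE 0.16, adjusted p = 0.0706, edgeR). Cnp, at 2045 and 2314 against 1443, 1539 and 1931, differed by -0.41 (SE 0.16, adjusted p = 0.0774). Neither passed the test. Mag was at 2005 and 2109 against 2638, 2466 and 2474, and Opalin at 405 and 305 against 524, 545 and 414. These had log2 differences in all cells of the clusters of 0.24 (SE 0.14, adjusted p = 0.243) and 0.39 (SE 0.19, adjusted p = 0.156). Cldn11, at 1868 and 1788 against 2436, 2203 and 1972, differed by 0.27 (SE 0.14, adjusted p = 0.190) and Mobp by -0.37 with overlapping groups (SE 0.19, adjusted p = 0.176).

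The calls of this comparison depended on which cells were summed. In all cells of the clusters 3 members were called, Ermn higher and Mal and Mog lower, against 21.8% of all genes. In clustered oligodendrocytes Ermn was called higher and Mal lower, with 10.5% of all genes called as lower. By the 4 of 6 rule, Mbp, Cnp and Mal were called lower, against 24.2% and 10.6% as lower. Mbp was then at 2359 and 2681 in MCAO/R + WT and at 952, 1309 and 1104 in MCAO/R + Lrg1-/-. Its log2 difference was -1.17 (SE 0.34, adjusted p = 0.0310, edgeR), that of Cnp -1.10 (SE 0.33, adjusted p = 0.0356) and that of Mal -1.46 (SE 0.43, adjusted p = 0.0314). In cells chosen by the other 8 markers no member was called by edgeR and 4 had an unadjusted p under 0.05, against 21.3% of all genes called. Among marker-positive cells that passed no other type's rule 6 members were called, 5 lower and 1 higher, against 32.2%. Mag and Cldn11 changed sign with the cells, from -0.42 and -0.43 by the rule to 0.30 and 0.27 in clusters, without a call in either set. No member was called in all cells of the clusters without MCAO/R + WT replicate 2, where Ermn log2 fold change in all cells of the clusters was 0.72 (adjusted p = 0.115) and that of Mal -0.73 (adjusted p = 0.126). There 1 was called without MCAO/R + WT replicate 1, which was Ermn, and 6 without MCAO/R + Lrg1-/- replicate 5. By the 4 of 6 rule none was called without MCAO/R + Lrg1-/- replicate 1 or 5 or any 1 WT library, and 5 without sham + Lrg1-/- replicate 5. Of the tracers in clustered cells, 4 of 4 for haemoglobin, 4 of 4 for choroid plexus and 4 of 5 for microglia were higher in the knockout, and their part in the result was not tested. Enpp2, 1 of the choroid plexus tracers, is also in the list of myelin lipid enzymes and is counted in both. It had a mean of 695 CPM in MCAO/R + WT and 1172 in MCAO/R + Lrg1-/-, against 180 and 5170 for Ttr.

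**Figure D2:**
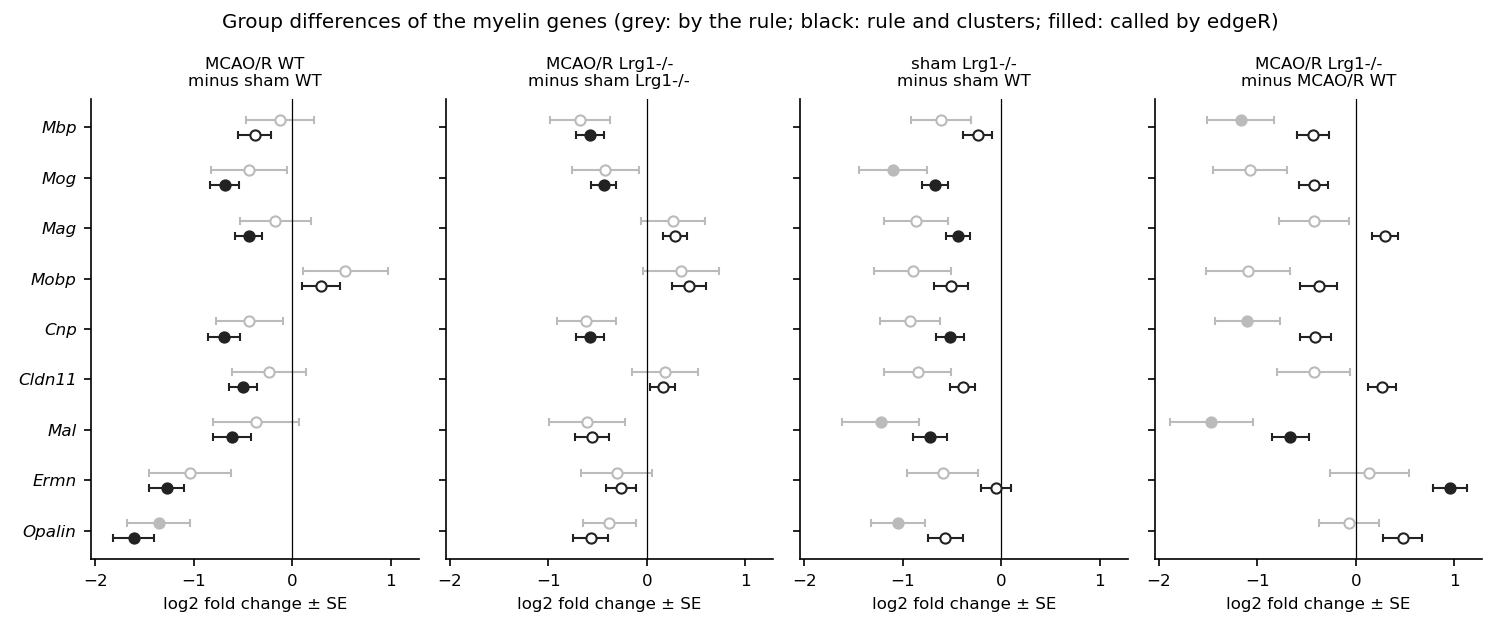
Log2 fold change ± SE of each member (horizontal axis) in the 4 comparisons between pairs of groups, grey for all cells by the 4 of 6 rule and black for clustered oligodendrocytes, filled where edgeR called the gene. In clustered cells Opalin and Ermn lie furthest to the left for stroke in WT mice, and Ermn lies to the right and Mal to the left for the knockout against WT after stroke.

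The interaction of genotype and surgery asks whether the change with stroke differed between WT and Lrg1-/- mice. No member was called by edgeR in all cells of the clusters, against 1.67% of all genes, with 4 members under an unadjusted p of 0.05. Opalin was at 1.02 on the log2 scale there (SE 0.26, adjusted p = 0.0643), Ermn at 0.99 (SE 0.27, adjusted p = 0.0878) and Mag at 0.72 (SE 0.19, adjusted p = 0.0775). Without 1 library 0 to 2 were called, with 2 without MCAO/R + Lrg1-/- replicate 2. In clustered oligodendrocytes, which Ermn helped to choose, Ermn alone was called, against 2.02% of all genes. That call was lost in 8 of the 11 fits that left out a library, with log2 values from 0.89 to 1.22. By the 4 of 6 rule no member was called, with 1 under an unadjusted p of 0.05, against 0.245% of all genes, and in cells chosen by the other 8 markers likewise none with 1 under 0.05, against 0.17%. The comparisons share libraries, so that a gene high in 1 group moves several of them at once.

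The make-up of the myelin transcripts was described as the share of each gene in the UMIs of the 9 genes. RNA free of these genes cannot dilute this measure. Foreign RNA that carries some of them can still shift it, as can the choice of cells by Mog, Mag, Ermn and Opalin. In endothelial cells, for example, Mbp was at 119 to 326 CPM in sham + Lrg1-/- and at 38.9 to 50.4 in sham + WT. The part of either in the shares was not tested. Mobp made up 6.89 to 7.67% in sham + WT and 6.63 to 8.14% in sham + Lrg1-/- libraries, and 12.9 to 13.3% in MCAO/R + WT and 9.49 to 13.4% in MCAO/R + Lrg1-/-. Its share was thus higher in all 5 stroke libraries than in all 6 sham libraries, whatever the genotype. Mag made up 10.3 to 10.8%, 10.5 to 11.2% and 11.1 to 11.2% in sham + WT, sham + Lrg1-/- and MCAO/R + WT, and 14.1 to 16.9% in MCAO/R + Lrg1-/-. Cldn11 made up 9.39 to 10.7% over the first 3 groups and 11.2 to 15.6% in MCAO/R + Lrg1-/-. Both genes had their highest shares in the 3 knockout libraries after stroke.

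Mal made up 28.2 to 29.5% in sham + WT, 22.4 to 25.9% in sham + Lrg1-/-, 27.2 to 27.3% in MCAO/R + WT and 18.1 to 22.5% in MCAO/R + Lrg1-/-. Its share was lower in every knockout library than in every WT library. Ermn made up 4.74 to 5.66% in sham + WT and 2.64 to 3.40% in MCAO/R + WT, and 6.58 to 7.20% and 5.79 to 8.04% in the knockout groups. Opalin made up 3.80 to 4.44% and 3.26 to 5.10% in the sham groups, 1.60 to 2.27% in MCAO/R + WT and 2.35 to 3.70% in MCAO/R + Lrg1-/-. The shares of Ermn were lowest in MCAO/R + WT without overlap with any other group, as were those of Opalin. Shares sum to the whole, so that a rise of 1 gene lowers the others.

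**Figure D3:**
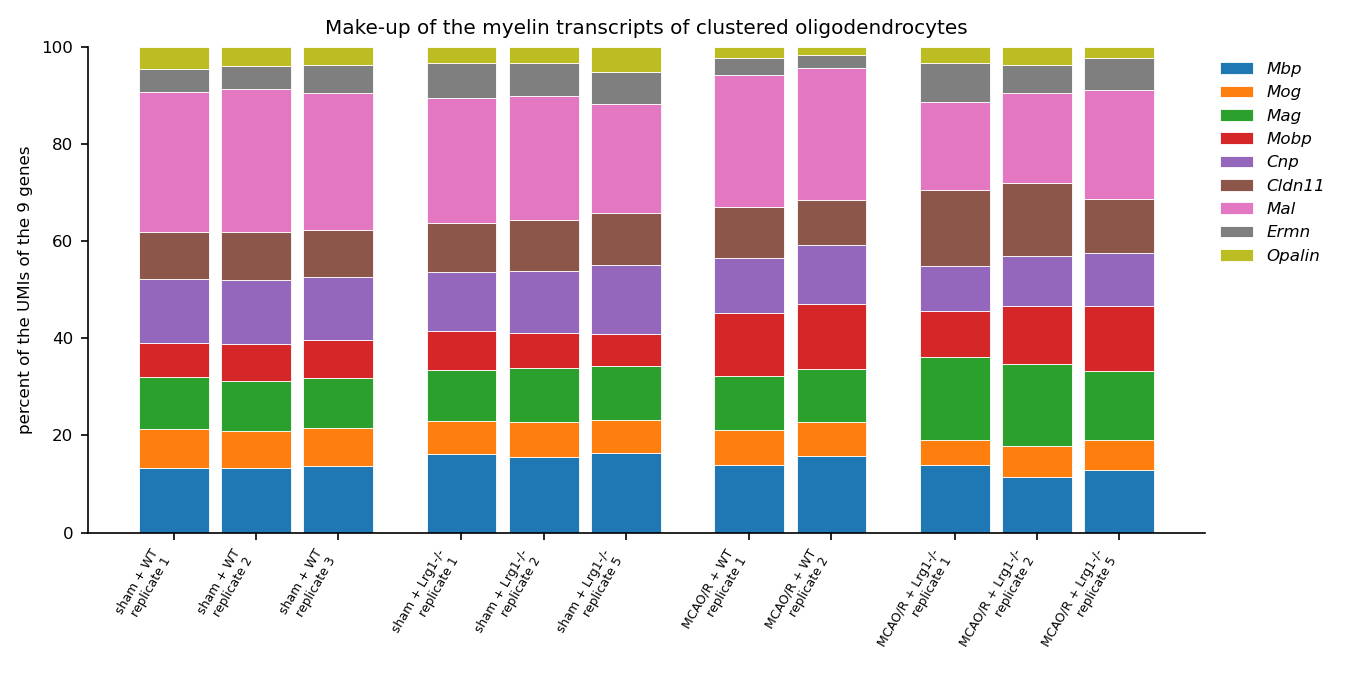
Share of each gene in the UMIs of the 9 myelin genes (percent, stacked to 100) in clustered oligodendrocytes, 1 bar per library in the order of the 4 groups. The band of Mobp is wider in all stroke libraries, those of Mag and Cldn11 are widest in MCAO/R + Lrg1-/-, and that of Ermn is narrowest in MCAO/R + WT.

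Other genes of myelin moved in wild-type mice after stroke in clustered oligodendrocytes. The lists are given without the genes that chose the cells, which are 5 of 20 myelin and junction genes and 3 of 11 measured lipid enzymes. Of the other 15 myelin and junction genes 13 were called lower and none higher, where 11.9% of all genes were called lower, and their median log2 difference was -0.88 against 0.01 for all genes. Pllp, plasmolipin, was 4.59-fold lower (adjusted p = 3.31e-06, edgeR). Of the other 8 lipid enzymes 5 were lower and none higher. Of 12 lineage regulators 5 were lower, among them St18 (2.79-fold, adjusted p = 0.000535) and Nkx2-2 (2.59-fold, adjusted p = 3.89e-06), and none was higher. Ugt8a, which makes galactocerebroside and helped to choose the cells, had a mean of 1232 CPM in sham + WT and 273 in MCAO/R + WT.

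Of 10 genes of oligodendrocyte subtypes 4 were higher and 3 lower, with the protease inhibitor Serpina3n up by 6.64 on the log2 scale (SE 0.54, adjusted p = 2.44e-06, edgeR), the complement gene C4b up by 1.70 (SE 0.30, adjusted p = 0.00112) and the carbonic anhydrase Car2 down by 2.49 (SE 0.24, adjusted p = 9.65e-06). In Lrg1-/- mice stroke went with 7 of 15 myelin and junction genes lower and 1 higher, 3 of 8 lipid enzymes lower and 1 higher, and 2 of 12 regulators lower and 1 higher, where 5.69% of all genes were called lower. Omg was 1.99-fold lower (adjusted p = 0.00173, edgeR).

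Between the genotypes after stroke, 5 of the 15 myelin and junction genes were higher in the knockout and 3 lower, where 21.1% of all genes were called. Tspan2 was 1.60-fold lower (adjusted p = 0.0105, edgeR). Of the lipid enzymes 2 of 8 were higher, among them Enpp2, a share near that of all genes. Of the 12 regulators 4 were higher, with St18 2.40-fold higher (adjusted p = 0.00296), and 2 lower, with Zfp488 2.91-fold lower (adjusted p = 0.00135). Of 13 immediate early genes 3 were higher. The interaction was positive for 4 of the 15 myelin and junction genes and for 1 of the 8 lipid enzymes, and negative for none of either list, against 2.02% of all genes called. Without stroke, 4 of 15 myelin and junction genes, 2 of 8 lipid enzymes and 3 of 12 regulators were lower in the knockout and none of them was higher, where 5.19% of all genes were called lower.

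Genes outside these lists whose pattern over the 11 libraries was most like the median of the 9 members were Etnk1 (Pearson r = 0.993), Aplp1 (0.987), Sbf1 (0.985), Tspan15 (0.985) and Kif1bp (0.984) by the 4 of 6 rule, of 3771 genes screened. In clustered oligodendrocytes they were Snx6 (0.987), Vamp3 (0.970), Tmbim6 (0.967), Mff (0.966) and Nap1l4 (0.966), of 3740. The points share libraries and the amount of other RNA in them, and the 2 lists had no gene in common. Among the members in clustered cells, Mog followed the median most closely (r = 0.973) and Mobp least (r = 0.171). These values are a description, since each member is part of that median and Mog helped to choose the cells. Between clustered cells with and without a UMI of Klk6, a protease of an oligodendrocyte subtype, Mal was lower in the Klk6 cells in 10 of 10 libraries (mean log2 difference -0.71, SD 0.27, exact two-sided sign-flip permutation test, p = 0.00195, the smallest possible). Opalin was lower (-1.53, SD 0.92) and Ermn higher (0.40, SD 0.17) in 10 of 10, as a description, since both chose the cells. Mag and Mobp were higher in 9 of 10 libraries, Cnp lower in 8 and Cldn11 lower in 7. The 10 libraries held at least 20 Klk6 cells each. In each of them the Klk6 cells were deeper, with median UMIs of 9881 to 21112 against 4526 to 15187 in the other cells. The part of depth in these differences was not tested.

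Outside oligodendrocytes, the summed level of the members had a median of 2.64% of that in clustered oligodendrocytes of the same library, over 10 other cell types. Here a cell belonged to a type with at least 4 of its 6 markers and under 4 of every other type. The summed level of the 9 genes in microglia was 1.25 to 2.65% in WT libraries and 2.22 to 6.91% in Lrg1-/- libraries. In astrocytes it was 1.10 to 2.73% against 2.13 to 5.86%, and in choroid plexus epithelial cells 1.06 to 1.62% against 1.83 to 5.39%. In these 3 types the percents of the Lrg1-/- libraries were mostly higher. The percents are relative to the level in clustered oligodendrocytes, which was itself lower in Lrg1-/- than in WT libraries after the same surgery. In CPM without TMM scaling the genotypes overlapped, at 272 to 523 in WT and 327 to 1268.5 in Lrg1-/- libraries in microglia. Astrocytes had 279 to 539 against 347 to 994, and choroid plexus epithelial cells 268 to 420 against 323 to 915. T cells, which do not make myelin, had 1.92 to 2.30% in the 3 sham + WT libraries, since both MCAO/R + WT libraries held too few of them. They had 2.64 to 6.14% in 5 Lrg1-/- libraries, 2 after sham surgery and 3 after MCAO/R, so that genotype and surgery are mixed here. In CPM without TMM scaling these T cells overlapped as well, at 486 to 615 in WT and 466 to 1041 in Lrg1-/- libraries. The highest values were 11.1 and 14.4% in endothelial cells of MCAO/R + WT, and up to 10.9% in smooth muscle cells and 12.6% in neutrophils of MCAO/R + Lrg1-/-. Mog, Mag, Ermn and Opalin helped to keep cells out of these types, so that their values there are a description. Oligodendrocyte precursors that passed their rule were too few for a level, with under 20 cells in every library.

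The genes did not all stand at the same percent in each type, and the source of the transcripts was not tested. In microglia, Mbp had 2.25 times the median percent of the other 8 genes (range 1.39 to 6.02) and was the highest of the 9 in 11 of 11 libraries. In T cells Mbp was at 7.31% of the oligodendrocyte level, 4.61 times the other 8, and the highest in 7 of 8 libraries. An excess of Mbp was not particular to these types. In each of the remaining types its median was 1.27 to 1.76 times the other 8, and single libraries reached up to 8.96 times, in pericytes. In astrocytes Cnp was at 4.77%, 2.90 times the other 8, and the highest in 9 of 11 libraries. The widest departure was Mal in endothelial cells, at a median of 10.9% (range 6.13 to 45.9%), 7.67 times the other 8, which lay between 1.14 and 2.58%. It was the highest of the 9 in 10 of 11 libraries.

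**Figure D4:**
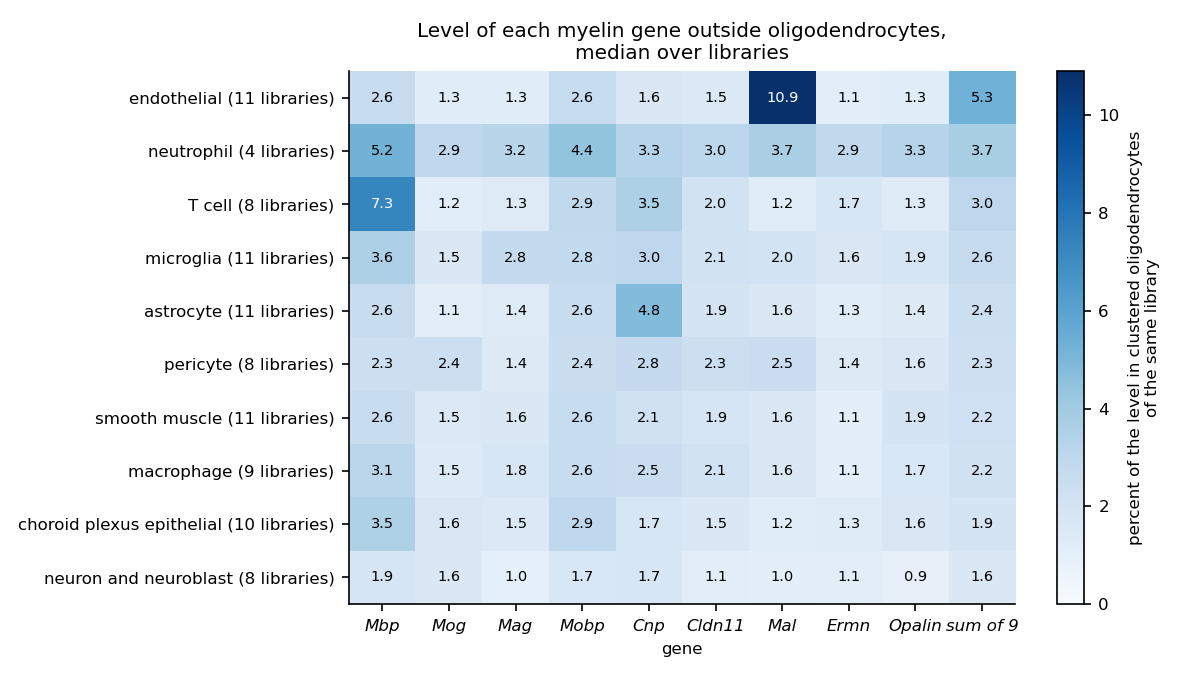
Median over libraries of the level of each myelin gene, and of their sum, in 10 other cell types, as percent of the level in clustered oligodendrocytes of the same library (colour and printed number); a library counts with at least 20 cells of the type. Mal in endothelial cells, at 10.9%, stands above all other values.

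In endothelial cells, which line the vessels, Mal rose with stroke in wild-type mice and far less in Lrg1-/- mice. It was at 471, 540.4 and 435 CPM in sham + WT, at 446, 459 and 450.2 in sham + Lrg1-/-, at 2019 and 2462 in MCAO/R + WT and at 648, 754 and 701 in MCAO/R + Lrg1-/-. The sham groups overlapped, and every stroke library was above every sham library. Both MCAO/R + WT libraries were above the 3 MCAO/R + Lrg1-/- libraries. In these cells 53.3% of all genes did not overlap between sham and stroke in WT mice, 35.1% in Lrg1-/- mice, and 49.97% between the genotypes after stroke. The levels rest on 1472 to 56091 Mal UMIs in 320 to 3084 cells per library. With stroke Mal rose 4.65-fold in WT mice (log2 2.22, SE 0.12, adjusted p = 5.37e-07, edgeR) and 1.55-fold in Lrg1-/- mice (log2 0.64, SE 0.11, adjusted p = 0.00197).

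After stroke the knockout was at 0.313 times the WT level (log2 -1.68, SE 0.12, adjusted p = 9.64e-06, edgeR), whereas in sham mice the difference was -0.09 (SE 0.11, adjusted p = 0.632). The interaction of genotype and surgery was -1.58 (SE 0.16, adjusted p = 0.000464). The 3 calls held without any 1 library. The stroke difference in WT mice ranged from 2.07 to 2.34, that between genotypes after stroke from -1.82 to -1.53, and the interaction from -1.74 to -1.43. The ends of these ranges are the fits without 1 MCAO/R + WT library, in which that group held 1 library and the spread came from the other groups. Cldn5, a tight junction gene of endothelium and 1 of the markers of the type, was at 4465 to 5325 in the sham libraries and lower, at 3282 to 3845, in the MCAO/R libraries, with 3479 and 3513 in MCAO/R + WT.

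The rise was also seen per cell. Endothelial cells with at least 2000 UMIs were thinned to 2000 UMIs, and cells under that depth were left out. Most were lost in sham + WT replicate 1, where 1722 of 2055 cells stayed. After thinning Mal had a UMI in 52.2 to 59.0% of cells in sham + WT and 50.2 to 50.9% in sham + Lrg1-/- libraries. It was seen in 84.4 and 89.2% of cells in MCAO/R + WT and in 59.7 to 66.0% in MCAO/R + Lrg1-/-. Without thinning the shares were 80.0 to 84.6%, 78.6 to 81.0%, 95.1 and 96.6%, and 83.9 to 90.3%. In microglia thinned alike, given for comparison, 7.46 to 34.2% of cells had a Mal UMI, and the highest share was in MCAO/R + Lrg1-/- replicate 5. The source of Mal transcripts in microglia was not tested. Opalin had a UMI in 0.566 to 9.43% of thinned endothelial cells, with the lowest share in MCAO/R + WT replicate 1. That is a description, since Opalin helped to keep cells out of the type. Mobp, which did not, had a UMI in 4.22 to 7.74% of thinned endothelial cells in sham + WT and 6.69 to 22.2% in sham + Lrg1-/-. Its shares after stroke were 6.79 and 12.8% in MCAO/R + WT and 9.41 to 38.3% in MCAO/R + Lrg1-/-.

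With stroke in WT mice Mal was the 1 member called by edgeR, against 17.6% of all genes. Mbp was at 48.4, 50.4 and 38.9 in sham + WT and at 32.9 and 79.8 in MCAO/R + WT, and Opalin at 13.7, 13.4 and 5.38 against 3.85 and 6.56. In Lrg1-/- mice Mal and Cldn11 were called higher with stroke, and so were Mag and Opalin, which helped to keep cells out, against 22.1%. Between genotypes after stroke Mal was lower while Cldn11 was higher in the knockout, by 1.54 on the log2 scale (SE 0.49, adjusted p = 0.0314). Cldn11 was at only 18.5 and 46.3 CPM in MCAO/R + WT and at 78.5, 49.1 and 158 in MCAO/R + Lrg1-/-. Its percent of the oligodendrocyte level was 0.80 to 1.13 times that of the other 8 genes over the libraries, against 2.34 to 40.3 times for Mal. The source of these Cldn11 transcripts was not tested. Ermn and Opalin were at differences of 2.19 and 1.91, a description since both helped to keep cells out, and 4 of 9 members were called against 29.1%. In sham mice Mbp alone was called, higher in the knockout (2.06, SE 0.54, adjusted p = 0.0258), against 12.7%, and in the interaction Mal alone, against 4.05%. Opalin was at 3.85 to 31.6 CPM over all libraries.

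**Figure D5:**
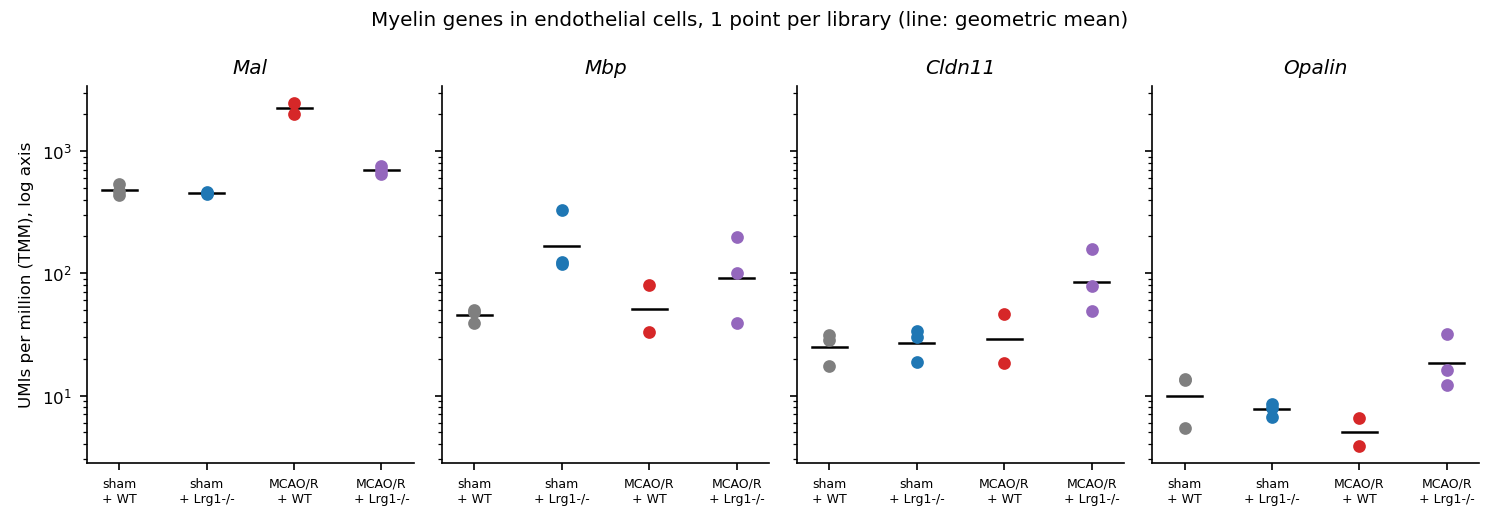
Level of Mal, Mbp, Cldn11 and Opalin in endothelial cells, in CPM on a log axis, for the 4 groups, with 1 point per library and a line at the geometric mean. Mal reaches 2019 and 2462 in MCAO/R + WT against 435 to 754 in all other libraries, while the other 3 genes lie at 3.85 to 79.8 in MCAO/R + WT.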

How the data were processed

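Single-cell libraries of 11 mice were analysed. The raw UMI counts, as deposited, came from the Cell Ranger software of the authors (7.0.1 in the headers of the matrices), and the submitters' processing notes name STAR and mm10. Cells with more than 500 genes, more than 1000 UMIs and under 25% mitochondrial UMIs were retained, and doublets by a Scrublet-type score at an expected rate of 6% were removed (the 6% highest scores where the automatic threshold marked under 0.5%). Of 155804 barcodes 132437 passed the filters and 125578 cells were retained. Depth was 37159497 to 171813031 UMIs per library, and summed oligodendrocyte counts 3002865 to 39686225 UMIs, which limits low genes.

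Counts were summed per library and cell type (at least 20 cells), since cells are not replicates. One fit over all 4 groups used edgeR 4.0.16 (TMM, package filter on low counts, quasi-likelihood test) under R 4.3.3. Calls needed a Benjamini-Hochberg adjusted p below 0.05 over all genes and a natural-log fold change above 0.25, the study's fold limit. Clusters came from leidenalg 0.10.2 per library at a resolution of 1, from 2000 variable genes without the members, 15 components and 15 neighbours, and were kept where the mean share of cells with a UMI of the 8 markers was at least 2 times that of the whole library and above that of the markers of every other type. The fit of the genotypes after stroke was tested on simulated counts with a fixed spread. It recovered 100 of 100 genes changed 4-fold and 30 of 100 changed 2-fold, with 4 false calls among 16531 unchanged genes. A missing call therefore does not show that a gene was unchanged. Alternatives were DESeq2 1.42.0, its size factors, no filter, other cell choices, thinning to 2000 UMIs, left-out libraries or genes, and a replicate block. The clustered cells and the endothelial test were chosen after seeing the data.

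The members, gene lists and named genes were chosen with earlier results of these data known. Named were all 9 members, the 2 genes of each list with the largest change in each direction among those called and moved the same way in every library, and the 5 genes most like the median of the members with a mean of at least 50 CPM. Some genes that this rule names are not reported here. No value of the study's own comparisons was used.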

Additional observations from a re-analysis of the deposited data

Results flagged for a closer look

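In endothelial cells the change of Mal with stroke differed between the genotypes by a test of the interaction itself. The interaction of genotype and surgery was -1.58 on the log2 scale (SE 0.16, adjusted p = 0.000464, edgeR). The 2 MCAO/R + WT libraries were at 2019 and 2462 CPM and the 3 MCAO/R + Lrg1-/- libraries at 648, 754 and 701. No group held the 4 libraries that the search for single outlying libraries needs.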

How the results depend on the processing

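No value changed sign under an alternative while called. Over the alternatives to the 4 of 6 rule, the number of members called between the genotypes after stroke was 3 as reported, 6 without cells of 2 types, 5 with cells thinned to 2000 UMIs, 5 without Klk6 cells, 5 with DESeq2, and 0 with 6 of 6 markers or with cells chosen without members. Between the genotypes in sham mice it was 3, and 6 with doublets kept, without Klk6 cells, in all cells of the clusters or with DESeq2, 1 with cells chosen without members, under 10% mitochondrial UMIs, without the tracer and mitochondrial genes or with only the groups compared, and 0 with 6 of 6 markers. For stroke in WT mice it was 1, and 5 without cells of 2 types, 2 thinned, 7 in clustered cells, 6 in all cells of the clusters and 6 with only the groups compared. For stroke in Lrg1-/- mice it was 0, and 6 without cells of 2 types, and 3 in clustered cells as in all cells of the clusters. The interaction gave 0, and 1 in clustered cells. Without 1 library each, the 5 counts ranged from 0 to 5, 0 to 5, 0 to 2, 0 to 3 and 0 to 0. In the same order, counts in clustered cells were 2, 4, 7, 3 and 1. They ranged from 1 to 7, 1 to 7, 3 to 8, 0 to 4 and 0 to 4 without 1 library each. DESeq2 gave 5, 7, 6 and 4 for all but stroke in WT mice, and without tracer and mitochondrial genes the sham comparison gave 7 and the interaction 2. In all cells of the clusters the 5 counts were 3, 6, 6, 3 and 0, and without 1 library each they ranged from 0 to 6, 1 to 7, 2 to 8, 0 to 4 and 0 to 2. The cause of these changes was not tested.

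With the replicate number as a replicate block, 0 members were called in each comparison by the rule, 1, 0, 4, 0 and 0 in clustered cells, and 1, 1, 4, 0 and 0 in all cells of the clusters. The numbers did not pair the libraries: residuals of 13 same-numbered pairs correlated at -0.25 to 0.19, and 1 of 10 libraries correlated best with its own number. The oligodendrocytes numbered 15824, and 6447 with 6 of 6 markers, 8594 after thinning, 9071 in clusters by the rule and 10210 in all cells of the clusters. The summed trace in other types had a median of 2.64%, and the median share of such cells with a UMI at 2000 UMIs was 8.41%. The 5 contrasts of Mal in endothelial cells, of which 4 were called, stayed on the same side of the threshold with DESeq2 size factors, DESeq2, doublets kept, the replicate block and each library left out, with ranges without 1 library each of -1.82 to -1.53, -0.16 to -0.00057, 2.07 to 2.34, 0.59 to 0.69 and -1.74 to -1.43. Without 1 MCAO/R + WT library, that group's lone library was assumed to vary like the other groups. Members below 0 numbered 7 to 9, 9 to 9, 8 to 8, 6 to 9 and 1 to 5 without 1 library each. Groups of 2 and 3 mice, unequal depth of libraries and foreign RNA in Lrg1-/- libraries limit all comparisons of genotype.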
